A study of Mus musculus with 24 samples.

Results

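Gene expression was compared between wild-type GMP and wild-type LMPP of mouse bone marrow, on 6 of the 24 arrays of a study of the transcription factor Ikaros. GMP stands here for the LK GFPhi gate (lineage-negative, c-Kit+ cells without Sca-1 that are bright for a green fluorescent reporter), with 3 arrays. LMPP stands for the LSK GFPhi gate (lineage-negative, Sca-1+, c-Kit+ cells, also sorted as GFPhi), also with 3 arrays. Both names are those of the labels: granulocyte-monocyte progenitors and lymphoid-primed multipotent progenitors. All 18193 genes with a probe set of their own were compared, so that no gene was chosen for its level. The remaining 18 arrays hold, with 3 each, the same gates of Ikaros-null mice and the GFP-negative LK gate (called MEP, megakaryocyte-erythroid progenitors) and the LSK gate without or with little GFP (called HSC, the stem cell fraction) of both genotypes.

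Every animal carried a transgene, line B-p-GFP-C on a mixed C57BL/6 and C3H background, in which regulatory DNA of the Ikaros gene drives GFP. The null animals carried in addition the Ikaros-null allele of line I74 on a mixed C57BL/6 and 129SV background. The reporter brightness was therefore part of the sort and says nothing further about Ikaros. The labels call the replicates biological, but do not say whether an array holds a single animal or a pool, and the p-values measure the spread between these arrays. The ages of the animals are not given in the sources used here. RNA of sorted cells was pooled into a single measurement per array, in which fewer cells of a type and less RNA per cell cannot be told apart.

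LMPP sit early in blood formation: they have lost most platelet and red cell potential, keep myeloid and lymphoid potential, and start to transcribe lymphoid genes at a low level. GMP are committed to granulocytes and monocytes, and are known for the serine proteases and myeloperoxidase that are packed into primary granules. C/EBP factors, PU.1 and Irf8 act in the myeloid choice, while Flt3 signalling, E proteins and the interleukin receptor Il7r act in the lymphoid choice.

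The sorted gates were checked against their markers on the log2 scale of the arrays, on which the median gene had a mean signal of 7.42. Kit, the receptor of both gates, averaged 11.65 in GMP and 11.58 in LMPP. Cd34 averaged 12.27 in GMP and 12.36 in LMPP, against 6.90 in MEP. Gata1, a factor of red cells and platelets, averaged 7.54 in GMP and 7.69 in LMPP, against 12.12 in MEP. The Ly6a gene, which encodes Sca-1, was not analysed here. Ikzf1, the Ikaros gene, had the same signal in both gates, 11.58 in GMP and 11.57 in LMPP, and averaged 7.24 in null GMP and 7.43 in null LMPP. Both populations carried markers of the other, with granule genes bright in LMPP and Flt3 and Dntt bright in GMP, as given below.

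The second GMP array stood apart from the other 2. Its root mean square log2 difference across genes was 0.446 to GMP replicate 1 and 0.388 to GMP replicate 3, while it was 0.368, 0.316 and 0.336 to LMPP replicates 1, 2 and 3. GMP replicates 1 and 3 differed by only 0.251. Of the genes called higher in GMP, replicate 2 was the GMP array nearest to the LMPP mean for 306 of 367 (83.4%), and of those called lower for 358 of 460 (77.8%). Arrays with the same replicate number also deviated together, so that a fit with the replicate number as a block was also made. Calls and counts from that fit and without GMP replicate 2 are given beside the lists and genes they change most.

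A limma fit over all 24 arrays called 827 of the 18193 genes at a Benjamini-Hochberg adjusted p below 0.05, which is 4.55% of those tested. Of these, 367 were higher in GMP (2.02%) and 460 lower (2.53%), and 279 (1.53%) differed at least 2-fold. The unadjusted p was below 0.05 for 3056 genes (16.8%). The 3 GMP and 3 LMPP arrays did not overlap for 796 of the called genes (4.38% of all), as against 2999 genes in all (16.5%). The count moved with the choice of arrays. It was 1708 (9.39%) without GMP replicate 2, with 988 higher (5.43%) and 720 lower (3.96%). With the replicate block it was 3148 (17.3%), with 1799 higher (9.89%) and 1349 lower (7.41%). It was 305 (1.68%) without GMP replicate 1 and 352 (1.93%) without GMP replicate 3. It was 451 (2.48%), 493 (2.71%) and 786 (4.32%) without LMPP replicates 1, 2 and 3. Of the 827 genes, 804 were also called without GMP replicate 2 and 801 with the block, while the 6 arrays fitted alone gave 149 calls (0.819%), 144 of them shared. Below, "called" means an adjusted p below 0.05 in the limma fit of all arrays, which did not pair arrays by replicate number. Differences are GMP minus LMPP on the log2 scale with a standard error, and 3 arrays stand behind each group. The standard error draws on the spread within all 8 groups, and can be wider or narrower than the spread of the 6 arrays printed.

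**Figure D1:**
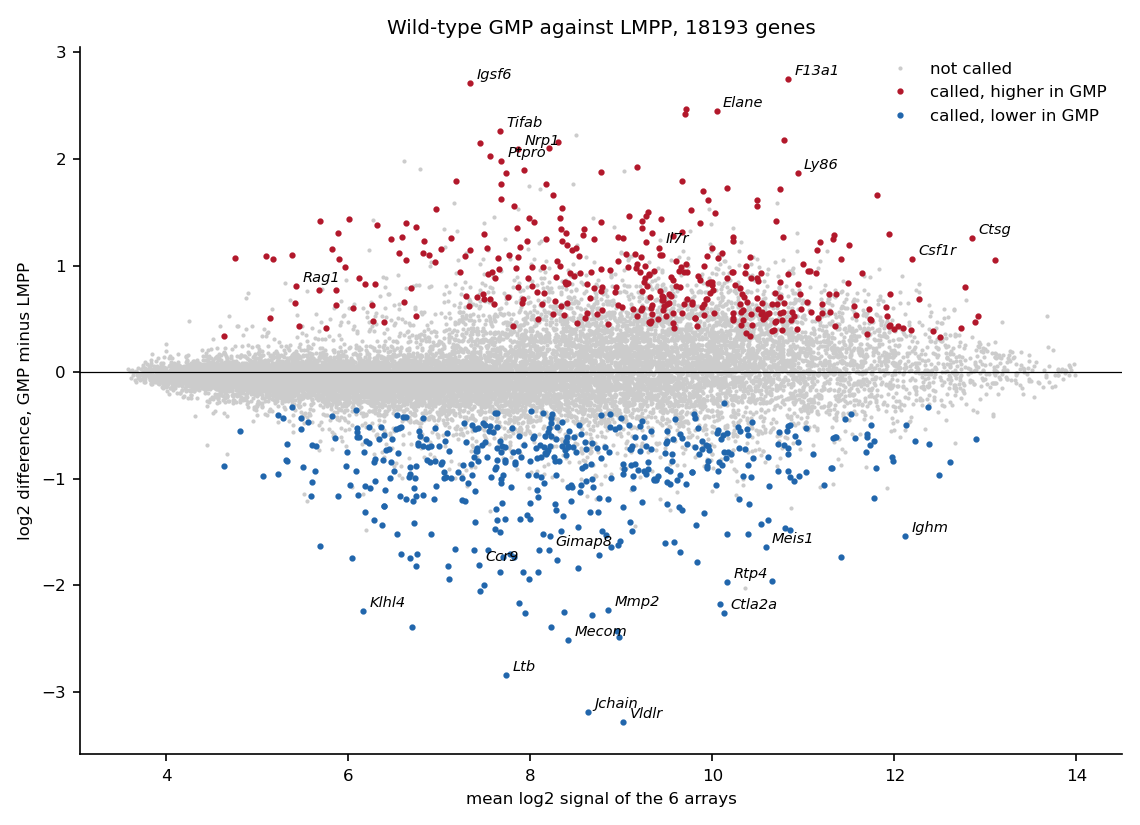
Mean log2 signal of the 6 wild-type arrays (x axis) against the log2 difference of GMP minus LMPP (y axis) for 18193 genes. The 367 genes called higher in GMP are red and the 460 called lower are blue. F13a1 and Igsf6 lead the rises, and Vldlr, Jchain and Ltb the falls.

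The plot of difference against mean signal shows the genes at either end. The largest rises in GMP among genes whose arrays did not overlap were F13a1 at 2.75 ± 0.38, Igsf6 at 2.71 ± 0.38, Hp at 2.47 ± 0.44, Elane at 2.45 ± 0.41 and Anxa3 at 2.42 ± 0.36. F13a1 is the clotting factor XIII subunit of monocytes, Hp is haptoglobin, a secreted binder of haemoglobin, and Anxa3 is a membrane-binding protein of granules. The largest falls were Vldlr at -3.28 ± 0.30, Jchain at -3.19 ± 0.44, Ltb at -2.84 ± 0.34, Mecom at -2.51 ± 0.25 and Iigp1 at -2.48 ± 0.41. Vldlr is a lipoprotein receptor, Jchain joins antibody subunits, Ltb is the lymphotoxin subunit, Mecom is a stem cell transcription factor and Iigp1 is an interferon-induced GTPase. Each of these 10 genes remained called with any 1 of the 6 arrays left out, with adjusted p between 3.43e-08 and 0.0211. In the fit of the 6 arrays alone Vldlr, Ltb and Mecom remained called. The other 7 did not, with adjusted p of 0.0655 for F13a1, 0.092 for Igsf6, 0.0784 for Hp, 0.0981 for Elane, 0.0944 for Anxa3, 0.093 for Jchain and 0.0709 for Iigp1. Vldlr has 6 probe sets, and the probe set used for it can cross-hybridise by its type.

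The promoters of the 4 called granule genes, and of the 3 called early lymphoid genes with the lowest adjusted p, are shown because these genes mark the lineages that the gates are named for. Those of the called lymphoid genes Il7r, Ccr9 and Ighm are not shown. They are RefSeq sequences on GRCm38.p6 of the 250 bases before the start, 5′ to 3′ on the gene's strand, with every match to a searched motif in capitals. The motifs were, on both strands, GAGGAAG (PU.1), TTNNGCAA (C/EBP), TGTGGT (Runx), CAACNG (Myb), CAGCTG and CAGGTG (E proteins) and TGGGAA (Ikaros).
Elane, chr10:79886062-79886311, plus strand: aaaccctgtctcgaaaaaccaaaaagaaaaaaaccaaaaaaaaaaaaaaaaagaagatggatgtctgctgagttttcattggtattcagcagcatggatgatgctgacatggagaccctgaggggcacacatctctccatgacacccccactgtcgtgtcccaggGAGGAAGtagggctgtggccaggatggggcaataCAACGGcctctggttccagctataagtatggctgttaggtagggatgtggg
Ms4a3, chr19:11640852-11641101, minus strand: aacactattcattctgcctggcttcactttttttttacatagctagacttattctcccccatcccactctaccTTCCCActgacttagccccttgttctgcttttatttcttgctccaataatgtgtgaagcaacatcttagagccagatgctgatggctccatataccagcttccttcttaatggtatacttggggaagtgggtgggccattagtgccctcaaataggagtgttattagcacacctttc
Ctsg, chr14:56102575-56102824, minus strand: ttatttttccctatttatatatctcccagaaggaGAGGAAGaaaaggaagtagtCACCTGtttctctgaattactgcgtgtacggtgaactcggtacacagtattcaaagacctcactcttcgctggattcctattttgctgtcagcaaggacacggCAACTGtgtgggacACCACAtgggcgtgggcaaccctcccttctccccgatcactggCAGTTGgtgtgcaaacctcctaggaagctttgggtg
Prtn3, chr10:79879417-79879666, plus strand: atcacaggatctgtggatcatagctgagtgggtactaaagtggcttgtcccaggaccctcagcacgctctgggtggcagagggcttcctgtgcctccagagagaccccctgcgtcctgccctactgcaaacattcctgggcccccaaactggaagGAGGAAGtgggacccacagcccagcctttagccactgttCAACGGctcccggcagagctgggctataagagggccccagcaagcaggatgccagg
Ltb, chr17:35194257-35194506, plus strand: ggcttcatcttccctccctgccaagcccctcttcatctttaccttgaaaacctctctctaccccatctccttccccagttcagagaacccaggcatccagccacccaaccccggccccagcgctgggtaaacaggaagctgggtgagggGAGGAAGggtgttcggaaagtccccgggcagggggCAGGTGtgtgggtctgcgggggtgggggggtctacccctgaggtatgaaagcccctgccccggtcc
Rag1, chr2:101649533-101649782, minus strand: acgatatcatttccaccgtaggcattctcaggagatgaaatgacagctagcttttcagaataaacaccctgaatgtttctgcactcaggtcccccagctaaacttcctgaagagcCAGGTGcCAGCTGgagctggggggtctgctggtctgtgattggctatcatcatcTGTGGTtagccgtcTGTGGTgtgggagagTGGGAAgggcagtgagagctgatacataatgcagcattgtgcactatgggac
Bcl11a, chr11:24080445-24080694, plus strand: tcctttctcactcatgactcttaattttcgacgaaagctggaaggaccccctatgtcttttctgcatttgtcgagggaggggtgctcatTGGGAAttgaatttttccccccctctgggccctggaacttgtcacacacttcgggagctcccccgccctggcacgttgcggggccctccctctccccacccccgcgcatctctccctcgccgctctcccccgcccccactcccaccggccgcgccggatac

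The promoters of Elane and Prtn3, which lie close together on chromosome 10, held the same pair of motifs in the same order. GAGGAAG began 85 bases before the start in Elane and 95 before it in Prtn3, and CAACGG began 51 and 56 bases before it. Ctsg held GAGGAAG 216 bases before the start and CAACTG 93 before it. Of the 11 primary granule genes with a promoter entry, 5 held GAGGAAG (45.5%), against 1534 of 14452 promoters of all genes (10.6%). Of the same 11, 7 held CAACNG (63.6%), against 28.3% of all promoters, and none held TTNNGCAA, which 8.07% of all promoters held. Over all genes called higher in GMP, GAGGAAG stood in 35 of 309 promoters (11.3%), and over those called lower in 48 of 357 (13.4%). TGGGAA stood in 57 of 309 promoters of genes called higher (18.4%) and in 89 of 357 of those called lower (24.9%), against 21.1% of all. These are matches of short words in a fixed window, and not measured sites of binding.

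Some primary granule genes were higher in GMP. Of 12 measured members of the list, 4 were called higher in GMP and 0 lower, with a median difference of 0.51, against a median of -0.03 over all genes. The replicate block called 8 higher. The count was 1 without GMP replicate 1, GMP replicate 3 or LMPP replicate 1 and 2 without LMPP replicate 2, and it was 4 without GMP replicate 2. The 6 arrays alone called 1. Elane, neutrophil elastase, had 12.16, 9.94 and 11.71 on the 3 GMP arrays, against 8.66, 8.91 and 8.88 on the LMPP arrays. All 3 GMP arrays were above all LMPP arrays, with replicate 2 the lowest of the 3, as the plot of single arrays shows. The difference was 2.45 ± 0.41 (limma adjusted p = 0.00134), a 5.48-fold higher level, and 3.12 without GMP replicate 2.

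Ms4a3, a membrane protein of granulocyte-monocyte precursors, had 12.85, 9.95 and 12.83 in GMP and 9.52, 9.48 and 10.09 in LMPP. Its second GMP array fell among the LMPP arrays, and the difference was 2.18 ± 0.49 (adjusted p = 0.0118), or 3.14 without that array. Ctsg, cathepsin G, had 13.72, 13.08 and 13.64 in GMP and 12.18, 12.25 and 12.24 in LMPP, a difference of 1.26 ± 0.29 (adjusted p = 0.0135). Prtn3, proteinase 3, had 13.80, 13.32 and 13.76 in GMP and 12.34, 12.74 and 12.65 in LMPP, a difference of 1.05 ± 0.27 (adjusted p = 0.0303). For both proteases the groups did not overlap and LMPP was already among the brightest signals of the array. With GMP replicate 1 or 3 left out the adjusted p was 0.109 and 0.101 for Ms4a3, 0.0929 and 0.0747 for Ctsg, and 0.160 and 0.141 for Prtn3. Without LMPP replicate 1 it was 0.0548, 0.0543 and 0.129 for the same 3 genes, and without LMPP replicate 2 it was 0.0527 for Ms4a3 and 0.0598 for Prtn3. Prtn3 had 0.0555 without LMPP replicate 3.

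Other granule genes differed less. Mpo, myeloperoxidase, had 14.01, 13.82 and 13.99 in GMP and 13.43, 13.42 and 13.37 in LMPP, close to the upper end of the scale at 14.5. Its groups did not overlap, yet its difference of 0.53 ± 0.31 was not called (adjusted p = 0.429), while the replicate block gave 0.0115. Lyz2, lysozyme, averaged the same in both, at 0.00 ± 0.26, and Nkg7, of cytotoxic granules, differed by -0.07 ± 0.20. Genes of the later neutrophil granules were near the array's low signals in both groups: of 17 measured, 0 were called higher and 1 lower, with 3 higher and 1 lower without GMP replicate 2 and 0 higher and 3 lower with the block. Ltf lay between 6.76 and 6.94 on all 6 arrays. The gene called lower was Padi4, a histone-modifying enzyme of neutrophils, at -1.21 ± 0.27. It had 6.05, 7.31 and 6.68 in GMP and 7.94, 7.89 and 7.85 in LMPP. Its adjusted p of 0.0132 became 0.123, 0.0551 and 0.0542 without GMP replicate 1, GMP replicate 3 and LMPP replicate 1.

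**Figure D2:**
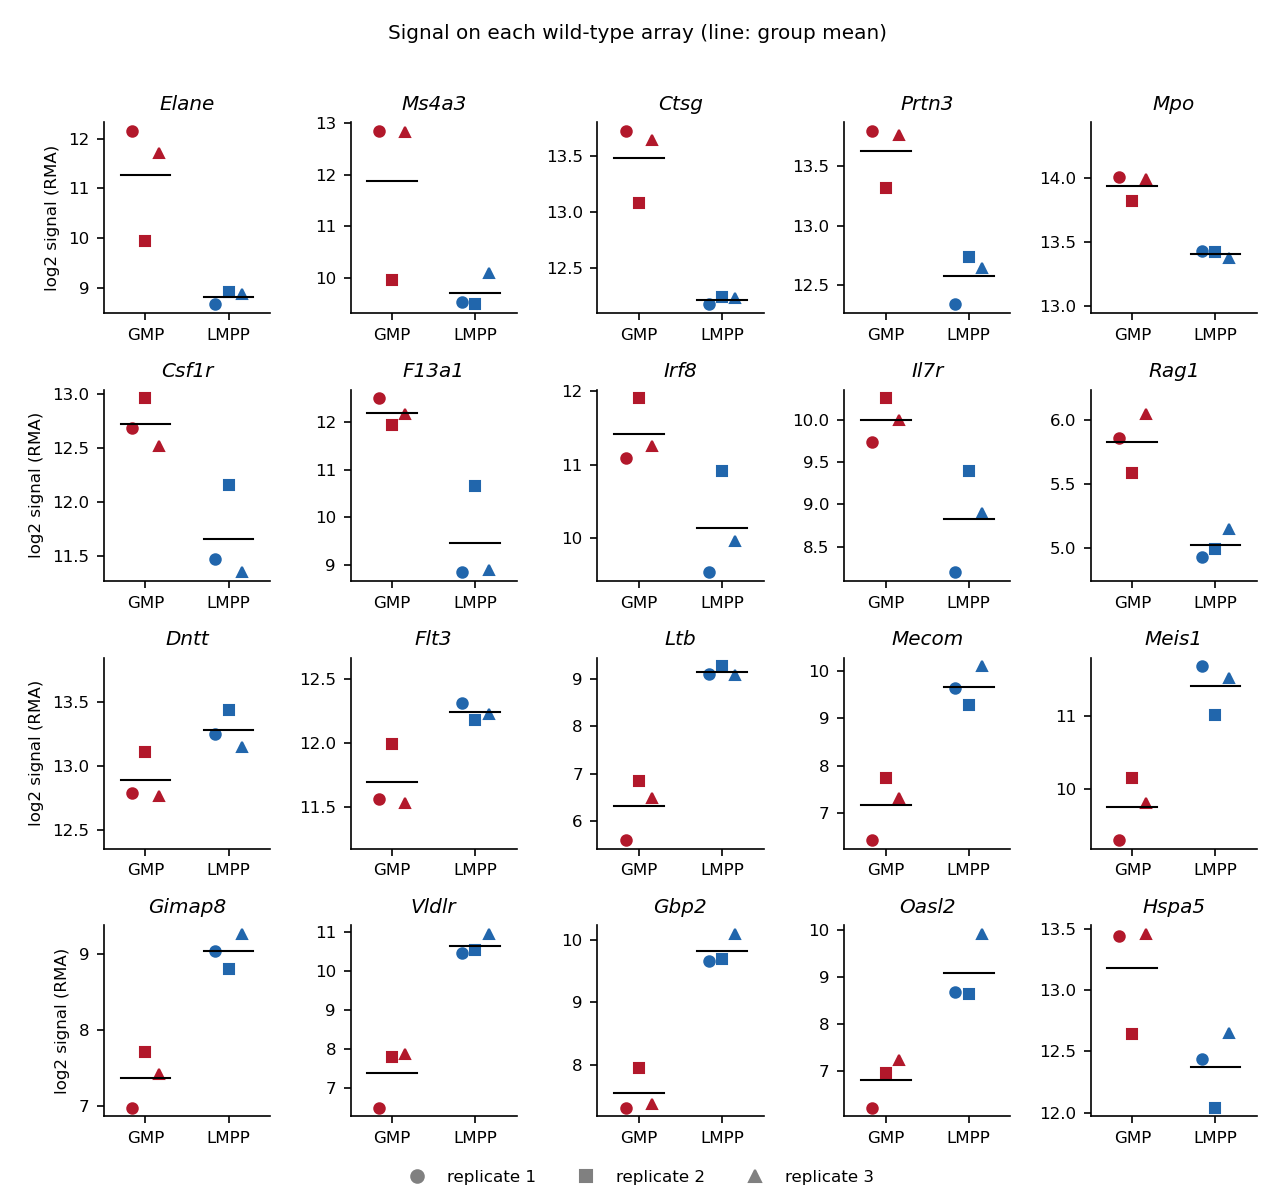
Log2 signal on each wild-type array for 20 genes, GMP (red) left of LMPP (blue), with a symbol per replicate number and a line at the group mean. Replicate 2 (squares) is the lowest GMP array for Elane, Ms4a3, Ctsg and Prtn3, and the GMP arrays lie below all LMPP arrays for Ltb, Mecom, Meis1, Gimap8, Vldlr, Gbp2 and Oasl2.

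Monocyte genes included the largest rise, F13a1. Of 20 measured members of the monocyte and macrophage list, 10 were called higher in GMP and 0 lower, with a median difference of 0.86, and 9 were called without GMP replicate 2. The count was 5 without GMP replicate 1 and 6 without GMP replicate 3. The block called 11 higher, and the 6 arrays alone 1. F13a1 had 12.50, 11.94 and 12.17 in GMP and 8.84, 10.66 and 8.88 in LMPP. The second LMPP array was the highest of its group and still below every GMP array. The difference was 2.75 ± 0.38 (adjusted p = 0.000237), a 6.72-fold higher level.

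Ly86, a partner of a Toll-like receptor homologue, had 11.80, 12.06 and 11.74 in GMP and 9.34, 10.88 and 9.78 in LMPP, a difference of 1.87 ± 0.30 (adjusted p = 0.000924). Ccr2, the chemokine receptor by which monocytes leave the marrow, had 12.15, 11.82 and 11.98 in GMP and 10.40, 10.83 and 10.84 in LMPP. Cx3cr1, the fractalkine receptor, had 8.36, 9.01 and 8.86 in GMP and 6.90, 7.97 and 7.13 in LMPP. Their differences were 1.29 ± 0.20 and 1.41 ± 0.25 (adjusted p of 0.000893 and 0.00213), without overlap of the groups. Cd14, a receptor for bacterial lipopolysaccharide, rose by 1.10 ± 0.22 (adjusted p = 0.00536). These genes and F13a1 kept their call with any 1 array left out. In the 6 arrays alone Ccr2 was called, while Ly86, Cx3cr1 and Cd14 had adjusted p of 0.0819, 0.0977 and 0.0537. Unlike the granule genes, Ly86 and Cx3cr1 were not lower on GMP replicate 2 than on the other GMP arrays.

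Csf1r, the receptor for macrophage colony-stimulating factor, had 12.69, 12.96 and 12.52 in GMP and 11.47, 12.16 and 11.35 in LMPP. The groups did not overlap, and the difference was 1.06 ± 0.24 (adjusted p = 0.0131), or 0.0543, 0.0713 and 0.0584 without GMP replicate 1, LMPP replicate 1 and LMPP replicate 3. Genes of tissue macrophages stayed near the low end of the scale, with C1qa between 6.32 and 6.77 and Mrc1 between 4.85 and 5.03 on the 6 arrays. Among the other growth factor receptors, Il6st, the shared signalling chain of the interleukin-6 family, rose by 1.40 ± 0.34 (adjusted p = 0.0190). It was not called without GMP replicate 2 (1.10, adjusted p = 0.0562) or LMPP replicate 1 (1.17, adjusted p = 0.110). Csf2ra, the receptor subunit for granulocyte-macrophage colony-stimulating factor, differed by 0.33 (adjusted p = 0.359), and Csf3r, the granulocyte factor's receptor, by -0.37 ± 0.17 (adjusted p = 0.285). The replicate block called Csf3r (adjusted p = 0.0297).

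Of 20 measured myeloid transcription factors, 3 were called higher in GMP and 0 lower, with a median of 0.09. Only 1 was called without GMP replicate 3, LMPP replicate 1 or LMPP replicate 3. The block called 5 higher and 2 lower, and 3 higher and 1 lower were called without GMP replicate 2. Cebpd, a C/EBP factor of the inflammatory response, had 9.71, 9.40 and 9.83 in GMP and 8.17, 8.38 and 8.61 in LMPP. The difference was 1.26 ± 0.21 (adjusted p = 0.00158), it kept its call with any 1 array left out and in the 6 arrays alone, and the groups did not overlap. Irf8, which acts towards monocytes and dendritic cells, had 11.09, 11.90 and 11.25 in GMP and 9.54, 10.92 and 9.97 in LMPP. Its groups also lay apart, with both arrays numbered 2 the highest of their group. The difference of 1.27 ± 0.31 (adjusted p = 0.0206) had adjusted p of 0.0573, 0.0554, 0.126 and 0.0630 without GMP replicate 2, GMP replicate 3, LMPP replicate 1 and LMPP replicate 3.

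Klf4, a monocyte factor, had 9.75, 9.32 and 9.07 in GMP and 7.41, 7.13 and 7.12 in LMPP, a 4.46-fold higher level (2.16 ± 0.58, adjusted p = 0.0376). It lost its call, with adjusted p of 0.188, 0.0905, 0.0878, 0.114 and 0.0822, without GMP replicate 1, GMP replicate 3 and each LMPP array in turn, although its groups did not overlap. Klf4 was called in the 6 arrays alone (adjusted p = 0.0163) and with the block (adjusted p = 0.00215). A dimmer probe set of Klf4 gave 0.21. Spi1, which encodes PU.1, had 8.09, 9.37 and 9.18 in GMP and 8.53, 8.95 and 8.65 in LMPP, which overlap. Cebpa, the factor required for GMP to form, averaged 10.38 ± 0.29 in GMP and 9.85 ± 0.16 in LMPP (SD, n = 3 each), without overlap of the arrays. Its difference of 0.53 ± 0.17 was not called (adjusted p = 0.0975) and was called without GMP replicate 2 (0.65, adjusted p = 0.0353) and with the block (adjusted p = 0.0241). Gfi1, a repressor on the granulocyte side, differed by -0.11 ± 0.30.

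Genes by which myeloid cells sense microbes were called in part. Of 24 measured members of the Toll-like receptor list, 6 were called higher and 0 lower, while the median was -0.04, and 4 were called without GMP replicate 1, LMPP replicate 1 or LMPP replicate 3. The block called 7 higher and 3 lower, and the 6 arrays alone 1 higher. Tlr1 had 6.72, 6.05 and 6.43 in GMP and 5.02, 5.11 and 4.81 in LMPP, a difference of 1.42 ± 0.16 (adjusted p = 3.1e-05). Fcer1g, the signalling chain of Fc receptors, had 9.92, 9.38 and 9.42 in GMP and 8.70, 8.71 and 8.34 in LMPP, a difference of 0.99 ± 0.17 (adjusted p = 0.00163). Both were above all LMPP arrays on every GMP array and kept their call with any 1 array left out. The 6 arrays alone called Tlr1 and gave Fcer1g an adjusted p of 0.0732. The receptors Tlr4, Tlr7 and Tlr9 were not called, at -0.22 ± 0.22, -0.40 ± 0.17 and -0.09 ± 0.13. Cybb, the catalytic subunit of the phagocyte oxidase, had 9.55, 7.32 and 9.14 in GMP and 6.67, 6.47 and 7.26 in LMPP (1.87 ± 0.47, adjusted p = 0.0237). Without GMP replicate 1, GMP replicate 3, LMPP replicate 1 and LMPP replicate 2 its adjusted p was 0.192, 0.146, 0.0878 and 0.106.

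In the lysosome list 4 of 26 were called higher and 0 lower, with a median of 0.32, and the block called 10 higher and 1 lower. The count was 7 without GMP replicate 2 and 1 without GMP replicate 1, GMP replicate 3 or LMPP replicate 1. Ctsh, a cathepsin, had 10.41, 10.71 and 10.54 in GMP and 8.10, 9.49 and 8.69 in LMPP, a difference of 1.79 ± 0.36 (adjusted p = 0.0054) that stood with any 1 array left out, but not in the 6 arrays alone (adjusted p = 0.0705). These called 0 genes of the list. Ctss, another cathepsin, was high in both at 12.03, 11.79 and 11.99 in GMP and 11.92, 11.56 and 12.01 in LMPP, and did not pass the test. Among 13 measured mast cell and basophil genes, 3 were called higher and 1 lower, and 1 higher without GMP replicate 1, GMP replicate 3 or LMPP replicate 2. Hdc, which makes histamine, had 9.77, 8.41 and 9.58 in GMP and 6.91, 7.05 and 7.51 in LMPP (2.10 ± 0.50, adjusted p = 0.0189). Its adjusted p was 0.131, 0.104, 0.0815 and 0.0701 without GMP replicate 1, GMP replicate 3, LMPP replicate 1 and LMPP replicate 2. Mcpt8, a basophil protease, rose by 1.15 ± 0.26 (adjusted p = 0.0136), with adjusted p of 0.117, 0.0734 and 0.0570 without GMP replicate 1, GMP replicate 3 and LMPP replicate 2.

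Several genes with large rises fall outside these lists. Nrp1, the semaphorin and growth factor receptor neuropilin, had 8.94, 8.92 and 8.88 in GMP and 6.49, 7.31 and 6.68 in LMPP, a difference of 2.09 ± 0.20 (adjusted p = 6.8e-06). Ptpro, a receptor phosphatase, had 8.68, 8.71 and 8.61 in GMP and 6.97, 6.68 and 6.42 in LMPP, a difference of 1.98 ± 0.24 (adjusted p = 5.3e-05). GMP replicate 2 matched the other GMP arrays for both genes, unlike for Igsf6, an immunoglobulin-domain receptor of myeloid cells, with 9.47, 7.23 and 9.36 in GMP and 5.99, 5.80 and 6.16 in LMPP. Tifab, an inhibitor of TRAF6 signalling, had 9.33, 8.52 and 8.54 in GMP and 6.43, 7.0 and 6.19 in LMPP (2.26 ± 0.23, adjusted p = 7.93e-06). Nrp1, Ptpro, Igsf6 and Tifab kept their call with any 1 array left out, and all but Igsf6 in the 6 arrays alone.

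**Figure D3:**
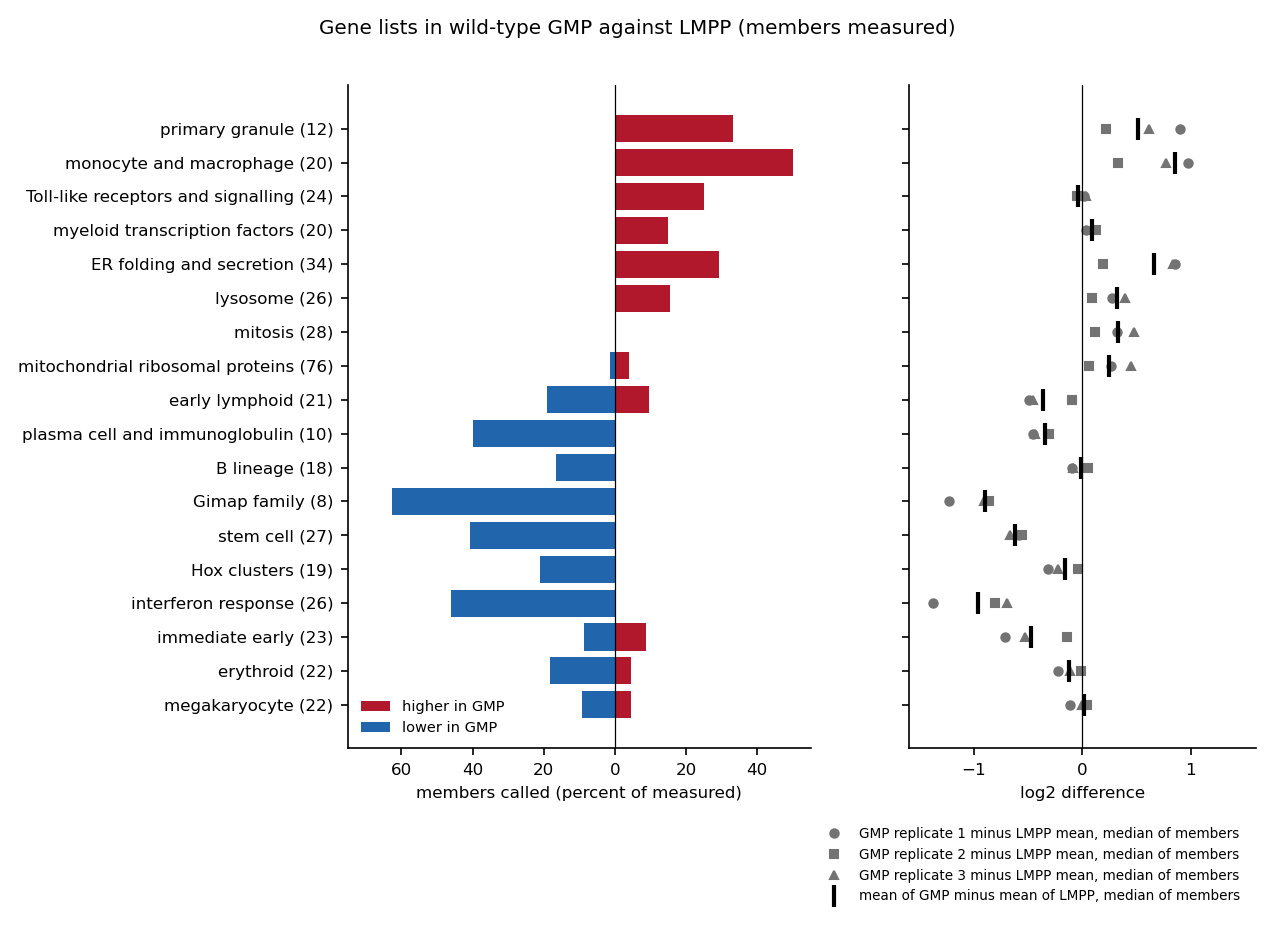
Left, percent of the measured members of each list called higher (red, to the right) or lower (blue, to the left) in GMP, with the number measured in brackets. Right, the median log2 difference of the members for each GMP array minus the LMPP mean (grey symbols) and for the group means (black bars). Monocyte, granule and ER folding genes lie on the GMP side and Gimap, interferon and stem cell genes on the LMPP side, and replicate 2 (squares) is nearest to 0 for granule and ER folding genes.

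Lymphoid genes did not move as a block, as the plot of gene lists shows. Of 21 measured early lymphoid genes, 4 were called lower in GMP and 2 higher, with a median of -0.36, and the replicate block called 11 lower and 3 higher. Only 2 were called lower without GMP replicate 1 or GMP replicate 3. Ltb, the lymphotoxin subunit, had 5.60, 6.84 and 6.49 in GMP and 9.10, 9.27 and 9.08 in LMPP. Every GMP array was below every LMPP array, and the difference was -2.84 ± 0.34 (adjusted p = 5.3e-05), a 7.15-fold higher level in LMPP. Bcl11a, a factor needed for lymphoid development, had 10.18, 11.14 and 10.35 in GMP and 11.49, 11.57 and 11.44 in LMPP. Its groups did not overlap either, and it fell by 0.94 ± 0.18 (adjusted p = 0.00433, or 0.157 in the 6 arrays alone) on the brightest of 7 probe sets, with a range of -2.43 to 0.02 over the others.

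Ighm, the transcript of the immunoglobulin heavy chain, which early progenitors make from the unrearranged locus, had 11.37, 11.66 and 11.03 in GMP and 13.06, 12.76 and 12.86 in LMPP (-1.54 ± 0.36, adjusted p = 0.0166). It was not called without GMP replicate 1, GMP replicate 3 or LMPP replicate 1, at 0.0682, 0.104 and 0.0742. Ccr9, the homing receptor for the thymus, had 6.44, 6.75 and 6.40 in GMP and 8.25, 8.89 and 7.89 in LMPP (-1.81 ± 0.41, adjusted p = 0.0133). It was not called without GMP replicate 1, GMP replicate 3 or LMPP replicate 2, at 0.0663, 0.0668 and 0.0823. For both genes the GMP arrays lay below all LMPP arrays. Ighm and Ccr9 were called in the 6 arrays alone, with adjusted p of 0.0185 and 0.0326. The block also called them, with adjusted p of 0.0038 and 0.00275. The probe set used for Ccr9 can cross-hybridise by its type, and 4 dimmer probe sets gave between -0.46 and -0.03.

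Il7r and Rag1 went the other way. Il7r, the interleukin receptor of lymphoid precursors, had 9.74, 10.25 and 9.99 in GMP and 8.20, 9.39 and 8.90 in LMPP. All GMP arrays were above all LMPP arrays, with a difference of 1.17 ± 0.26 (adjusted p = 0.0111), or 0.85 and an adjusted p of 0.0786 without LMPP replicate 1. A dimmer probe set gave 0.44. Rag1, a subunit of the antigen receptor recombinase, had 5.86, 5.59 and 6.05 in GMP and 4.93, 4.99 and 5.15 in LMPP, a difference of 0.81 ± 0.12 (adjusted p = 0.000409) that stood with any 1 array left out, but not in the 6 arrays alone (adjusted p = 0.0677). Its signal lay below that of the median gene in both groups, and its partner Rag2 differed by 0.00 ± 0.11.

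Dntt and Flt3, by which LMPP are often recognised, were high in both gates. Dntt, which adds bases at antigen receptor joints, had 12.79, 13.11 and 12.76 in GMP and 13.25, 13.44 and 13.15 in LMPP (-0.39 ± 0.48, adjusted p = 0.760). Flt3, a growth factor receptor, had 11.56, 11.99 and 11.53 in GMP and 12.31, 12.18 and 12.23 in LMPP (-0.55 ± 0.29, adjusted p = 0.357). The groups did not overlap for either gene, and the replicate block called both lower in GMP, with adjusted p of 0.0218 and 0.0329. Satb1 and Notch1 differed by -0.22 ± 0.31 and -0.26 ± 0.28 and were not called.

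Called genes of antibody-secreting cells and of B cells were higher in LMPP. Of 10 measured members of the plasma cell and immunoglobulin list, 4 were called lower in GMP and 0 higher. Of 18 measured B lineage genes, 3 were called lower and 0 higher. The plasma cell count was 2 without GMP replicate 3, and the B lineage count was 1 without GMP replicate 3, LMPP replicate 1 or LMPP replicate 2. Jchain had 8.05, 6.53 and 6.54 in GMP and 11.19, 8.83 and 10.66 in LMPP, a difference of -3.19 ± 0.44 (adjusted p = 0.000237). Igha, the heavy chain of IgA, had 7.95, 7.91 and 8.09 in GMP and 9.78, 8.95 and 8.59 in LMPP (-1.12 ± 0.19, adjusted p = 0.00167). Igkv8-30, a kappa chain variable segment, had 5.96, 5.28 and 5.26 in GMP and 8.89, 7.07 and 7.72 in LMPP (-2.39 ± 0.31, adjusted p = 0.000126). The only probe set of Igkv8-30 can cross-hybridise by its type. The LMPP arrays were all above the GMP arrays but spread more than they, with replicate 1 the highest for these 3 genes. The 6 arrays alone did not call them, with adjusted p of 0.093, 0.151 and 0.0733.

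Over its 10 measured members the plasma cell list averaged 7.92, 7.87 and 7.75 on the GMP arrays, against 8.71, 8.52 and 8.51 on the LMPP arrays. Of its defining members, Sdc1 lay between 8.44 and 9.60, Prdm1 between 5.97 and 6.67 and Tnfrsf17 between 5.15 and 5.62 on the 6 arrays, and none of these was called. Of the B cell markers, Pax5, Cd79a and Ebf1 lay between 5.04 and 6.60 on all 6 arrays. A part of mature cells in these differences was not tested. Among the called B lineage genes, Cd72, a B cell co-receptor, had 8.0, 8.27 and 8.03 in GMP and 9.21, 8.99 and 9.17 in LMPP (-1.02 ± 0.16, adjusted p = 0.000992). Of 22 measured T and NK genes, 1 was called lower: Lat, an adaptor of T cells, mast cells and platelets, at -1.04 ± 0.18 (adjusted p = 0.00186).

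The called stem cell genes were lower in GMP. Of 27 measured, 11 were called lower and 0 higher, with a median of -0.62, and 12 were called lower without GMP replicate 2. The count was 6 without GMP replicate 1 and 7 without GMP replicate 3, and the block called 16 lower and 1 higher. The 6 arrays alone called 6 lower. Mecom had 6.43, 7.73 and 7.32 in GMP and 9.63, 9.28 and 10.10 in LMPP. The groups lay apart, with a difference of -2.51 ± 0.25 (adjusted p = 6.8e-06), on the only bright probe set of the gene. Hlf, a factor of stem cells, had 8.59, 9.02 and 8.79 in GMP and 10.58, 10.15 and 10.73 in LMPP, a difference of -1.69 ± 0.22 (adjusted p = 0.000137). Meis1, the cofactor of Hox proteins, had 9.31, 10.16 and 9.82 in GMP and 11.68, 11.02 and 11.52 in LMPP, a difference of -1.64 ± 0.30 (adjusted p = 0.0026).

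Fgd5 and Procr, both used to mark stem cells, fell by 1.70 ± 0.26 and 1.54 ± 0.27 (adjusted p of 0.000785 and 0.00163). Their levels in LMPP, 7.39 to 7.52 for Fgd5 and 8.39 to 9.29 for Procr, were below the HSC means of 9.95 and 11.51. All 5 genes kept their call with any 1 array left out, and all but Procr (adjusted p = 0.0757) in the 6 arrays alone. Tek, Tie1, Slamf1 and Vwf, whose wild-type signal was highest in HSC, were not called and had differences between -0.24 and 0.34. Of 19 measured Hox cluster genes and cofactors, 4 were called lower and 0 higher, or 6 lower without GMP replicate 2 and 2 without GMP replicate 3. Hoxa5 fell by 0.51 ± 0.09 (adjusted p = 0.00275) and kept its call with any 1 array left out, but not in the 6 arrays alone (adjusted p = 0.102). Hoxa9 had 11.37, 11.66 and 11.70 in GMP and 12.40, 12.22 and 12.47 in LMPP (-0.79 ± 0.21, adjusted p = 0.0351), without overlap. Hoxa9 kept its call only where GMP replicate 2 was the array left out, with adjusted p between 0.0642 and 0.203 otherwise.

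Of the 8 Gimap genes, GTPases of lymphocytes, 5 were called lower in GMP and 0 higher, with a median of -0.90, and the 6 arrays alone called 3. The 8 genes lie in a single stretch of chromosome 6 in the GRCm38.p6 assembly. Gimap8 had 6.98, 7.71 and 7.43 in GMP and 9.04, 8.81 and 9.27 in LMPP, a difference of -1.67 ± 0.20 (adjusted p = 5.3e-05). Gimap1, Gimap7 and Gimap5 fell by 1.49 ± 0.24, 1.38 ± 0.25 and 0.98 ± 0.13, all without overlap of the groups and called with any 1 array left out. Gimap7 was not called in the 6 arrays alone (adjusted p = 0.0591). Gimap9 fell by 0.82 ± 0.22 (adjusted p = 0.0351) and had adjusted p between 0.0710 and 0.265 without each array other than GMP replicate 2. Gimap3 and Gimap4, in the same run of genes, differed by -0.17 ± 0.11 and -0.04 ± 0.24.

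Genes induced by interferon were called on the LMPP side. Of 26 measured, 12 were called lower in GMP and 0 higher, with a median of -0.96, and the replicate block called 18. The 6 arrays alone called 3. Gbp2, a guanylate-binding protein, had 7.31, 7.94 and 7.37 in GMP and 9.66, 9.70 and 10.10 in LMPP, a difference of -2.28 ± 0.37 (adjusted p = 0.00104). The probe set used for Gbp2 can cross-hybridise by its type. Oasl2, of the RNA-sensing synthetase family, had 6.22, 6.96 and 7.24 in GMP and 8.68, 8.63 and 9.91 in LMPP, a difference of -2.26 ± 0.37 (adjusted p = 0.00104). Ifit1, which binds foreign RNA, had 5.74, 6.28 and 6.54 in GMP and 7.45, 7.81 and 8.74 in LMPP, a difference of -1.82 ± 0.30 (adjusted p = 0.00109). In all 3 genes the groups lay apart and LMPP replicate 3 was the highest array.

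Over the whole list the arrays averaged 8.13, 8.51 and 8.53 in GMP and 9.14, 9.16 and 9.91 in LMPP. Without LMPP replicate 3 the median was -0.59 and 11 members were called lower. Without GMP replicate 1 the median was -0.72. Gbp2 kept its call with any 1 array left out and in the 6 arrays alone. Oasl2 and Ifit1 kept theirs with any 1 array left out, but had adjusted p of 0.0677 and 0.0797 in the 6 arrays alone, while Oas1a did not without LMPP replicate 3 (-0.67, adjusted p = 0.0897) or GMP replicate 1 (-0.77, adjusted p = 0.164). Irf7, a factor of the interferon response, fell by 1.10 ± 0.22 (adjusted p = 0.00583), or 0.92 with an adjusted p of 0.0561 without GMP replicate 1. Bst2 and Gbp3 of the same list differed by 0.06 ± 0.41 and 0.52 ± 0.28 and were not called.

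Of 23 immediate early genes, 2 were called lower and 2 higher, Klf4 among them, with a median of -0.47. The block called 9 lower. None was called lower without GMP replicate 1 or LMPP replicate 1, and 4 without GMP replicate 2. Egr1, an early response factor, had 8.92, 10.08 and 9.05 in GMP and 12.12, 10.85 and 11.15 in LMPP. The difference of -2.02 ± 0.64 was not called (adjusted p = 0.0807) although the groups did not overlap, and the replicate block called it (adjusted p = 0.0210). Such genes also respond to handling of cells, and a part of handling was not tested. Socs3, an inhibitor of cytokine signalling, had 5.55, 6.97 and 6.74 in GMP and 8.14, 8.53 and 8.75 in LMPP, a difference of -2.05 ± 0.35 (adjusted p = 0.00158) that stood with any 1 array left out, but not in the 6 arrays alone (adjusted p = 0.0706).

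The called genes of the secretory pathway were higher in GMP. Of 34 measured members of the ER folding and secretion list, 10 were called higher and 0 lower, with a median of 0.66. The count followed GMP replicate 2: 23 were called without it, and 24 higher and 1 lower with the block. It was 2 without GMP replicate 1 or 3, 3 without LMPP replicate 1 and 4 without LMPP replicate 2, and the 6 arrays alone called 0. Edem1, which sends misfolded proteins to degradation, had 10.28, 9.58 and 10.09 in GMP and 9.06, 9.01 and 9.23 in LMPP, a difference of 0.89 ± 0.14 (adjusted p = 0.000651). Rpn1, of the sugar-transferring complex, had 13.24, 13.05 and 13.25 in GMP and 12.61, 12.48 and 12.87 in LMPP, a difference of 0.53 ± 0.09 (adjusted p = 0.00238). Both lay apart and kept their call with any 1 array left out, but not in the 6 arrays alone (adjusted p of 0.0978 and 0.155).

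Hspa5, the main chaperone of the endoplasmic reticulum, had 13.44, 12.64 and 13.46 in GMP and 12.44, 12.04 and 12.65 in LMPP. GMP replicate 2 was just below the highest LMPP array, and the difference was 0.80 ± 0.22 (adjusted p = 0.0448). It was not called without GMP replicate 1, GMP replicate 3, LMPP replicate 1 or LMPP replicate 2, at 0.248, 0.255, 0.102 and 0.231, and had an adjusted p of 0.00353 without GMP replicate 2. Of the other lists on growth, mitosis had 0 of 28 called (median 0.33; 11 higher with the block), the TCA cycle 0 of 22 (median 0.36; 10 higher with the block) and mitochondrial ribosomal proteins 3 higher and 1 lower of 76 (median 0.25; 23 higher and 1 lower with the block). Without GMP replicate 2, 3 mitosis, 9 TCA cycle and 15 mitochondrial ribosomal protein genes were called higher. Mki67, a marker of dividing cells, averaged 12.66 in GMP and 12.37 in LMPP and was not called. Of 44 cytosolic ribosomal protein genes 0 were called, with a median of -0.07.

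Some red cell and platelet genes were called, where 2.02% of all genes were called higher in GMP and 2.53% lower. Of 22 measured erythroid genes, 1 was called higher and 4 lower, and of 22 megakaryocyte genes 1 was called higher and 2 lower. Without GMP replicate 1, LMPP replicate 1 or LMPP replicate 3, 1 erythroid gene was called lower, and 2 without GMP replicate 3. The block called 4 megakaryocyte genes higher and 3 lower. Klf1, the factor of red cell maturation, averaged 6.74 in GMP and 6.78 in LMPP, against 12.10 in MEP. Hemgn, a nuclear protein of stem and red cells, had 7.57, 8.44 and 7.70 in GMP and 9.77, 9.41 and 9.65 in LMPP (-1.71 ± 0.21, adjusted p = 8.03e-05). F2r, the thrombin receptor, had 9.89, 11.42 and 10.34 in GMP and 12.18, 12.38 and 12.26 in LMPP (-1.73 ± 0.27, adjusted p = 0.000844). Both lay apart and kept their call with any 1 array left out, and the 6 arrays alone called Hemgn but not F2r (adjusted p = 0.0913). Tfrc, the transferrin receptor, rose by 1.02 ± 0.22 (adjusted p = 0.00945), with adjusted p of 0.0595, 0.0742 and 0.0557 without GMP replicate 1, GMP replicate 3 and LMPP replicate 1.

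The same step from LSK to LK was also sampled in the GFP-low cells, as wild-type MEP and HSC. Those arrays entered the GMP and LMPP comparison through the shared estimate of the spread and through the choice of the probe set for each gene. Of the 367 genes called higher in GMP, 225 (61.3%) were also higher in MEP than in HSC, with a median difference of 0.22 there against 0.84 in the GFP-bright pair. Over all genes 56.5% were higher in MEP. Of the 460 genes called lower in GMP, 419 (91.1%) were also lower in MEP than in HSC, with a median of -1.19 against -0.84. Over all genes the median of MEP minus HSC was 0.03, and 62.9% had the same sign in both pairs. Among the 4 wild-type populations, the highest mean of the 367 genes lay in GMP for 248 (67.6%) and in MEP for 117 (31.9%), against 17.4% and 32.2% of all genes. The highest mean of the 460 genes lay in HSC for 262 (57.0%) and in LMPP for 163 (35.4%), against 18.2% and 32.2% of all genes. By their selection, LMPP could not be highest for the 367 genes, nor GMP for the 460. The shares of all genes include these populations, so the shares of the called genes are raised in part by the selection.

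**Figure D4:**
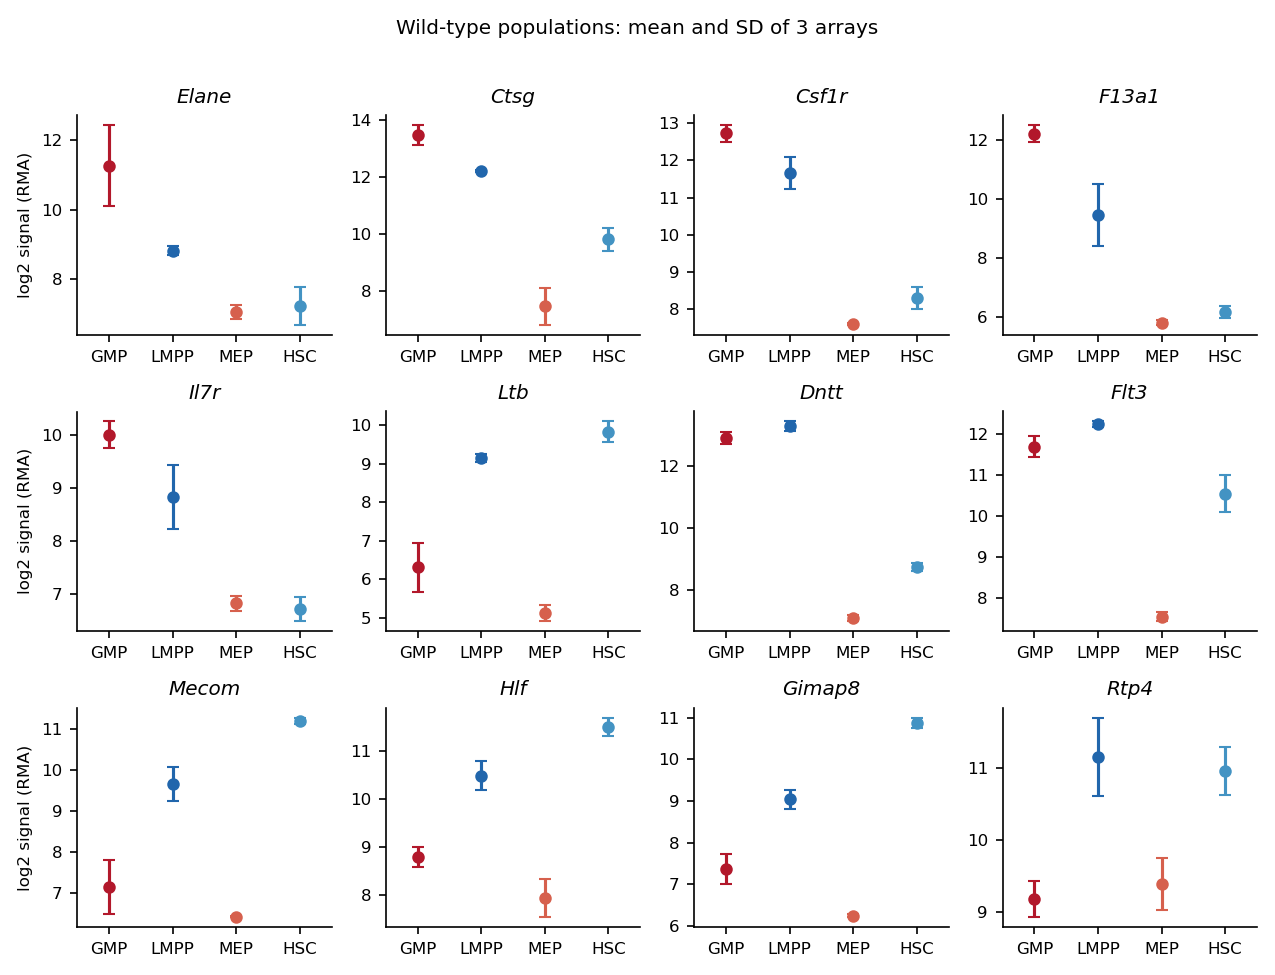
Mean log2 signal with the SD of 3 arrays in the 4 wild-type populations, for 12 genes. Elane, Ctsg, Csf1r and F13a1 peak in GMP, Dntt and Flt3 are high in GMP and LMPP, and Mecom, Hlf and Gimap8 are highest in HSC.

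The plot of the 4 wild-type populations shows these orders for 12 genes. Elane averaged 11.27 ± 1.17 in GMP, 8.82 ± 0.14 in LMPP, 7.04 ± 0.20 in MEP and 7.22 ± 0.55 in HSC (SD, n = 3 each), with MEP and HSC within 1 SD of each other. Mecom averaged 7.16 ± 0.66 in GMP, 9.67 ± 0.41 in LMPP, 6.43 ± 0.02 in MEP and 11.20 ± 0.08 in HSC. Ltb averaged 6.31 ± 0.64 in GMP and 9.15 ± 0.10 in LMPP, and 5.13 ± 0.21 in MEP and 9.82 ± 0.27 in HSC.

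A test of whether the GFP-bright LK minus LSK difference differs from that of the GFP-low pair called 1627 genes (8.94%), 1180 more positive (6.49%) and 447 more negative (2.46%), and 3182 with the replicate block. The unadjusted p was below 0.05 for 3315 (18.2%). With each array centred on its median, 1797 genes were called, of which 55.2% were more positive, against 72.5% without centring. The median of all genes was -0.18 with centring and -0.07 without it. The 6 with the largest positive values were Alcam at 5.38, Bex6 at 5.04, Gria3 at 5.03, Mgst1 at 4.84, Sting1 at 4.77 and H2-Aa at 4.70. In these genes the GFP-low pair carried most of the difference: Alcam, an adhesion molecule, had 9.99, 11.24 and 10.45 in GMP and 10.68, 11.74 and 11.24 in LMPP, beside 5.09, 5.71 and 5.20 in MEP and 10.84, 11.63 and 11.65 in HSC. Gria3, a glutamate receptor subunit, also differed within the bright pair, with 11.09, 11.02 and 10.95 in GMP and 9.27, 9.46 and 9.15 in LMPP. It had 4.53, 4.65 and 4.55 in MEP and 8.01, 7.64 and 7.99 in HSC. The most negative values belonged to genes of MEP, such as Rhd, the Rhesus antigen, with 7.29, 7.46 and 7.5 in GMP and 7.38, 7.79 and 7.64 in LMPP, beside 11.64, 11.27 and 11.76 in MEP and 8.10, 8.72 and 8.46 in HSC. These 3 genes kept their call with any 1 of the 12 arrays left out.

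By list, the primary granule genes had 11 of 12 called more positive in this test, with a median of 2.66, and the stem cell genes 15 of 27 more positive and 1 more negative, with a median of 1.3. The stem cell genes called in this test had, with 1 exception, a more positive LK minus LSK difference in GFP-bright than in GFP-low cells. Of the 22 erythroid genes, 1 was called more positive and 16 more negative, with a median of -1.93. The interferon list had 2 called each way of 26, with a median of 0.04, and the ER folding list 4 more positive of 34, with a median of 0.18. Of the interferon genes, Oasl2 averaged 6.26 in MEP and 9.34 in HSC.

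The Ikaros-null GMP and LMPP arrays offer the same comparison on 6 other arrays, in cells without the factor. The 5 measured sex-linked genes (Xist and genes of the Y chromosome) averaged 8.41 in wild-type GMP and 8.35 in wild-type LMPP. They averaged 7.32 in null GMP and 7.07 in null LMPP. Because this average mixes Xist with genes of the Y chromosome, it does not give the sex of a group. A part of sex or strain background in the differences between genotypes was not tested. Of the 367 genes called higher in wild-type GMP, 294 (80.1%) were higher in null GMP than null LMPP, with a median difference of 0.28, against 59.2% of all genes. Of the 460 called lower, 428 (93.0%) were lower in null GMP, with a median of -0.39. Over all genes the median in null cells was 0.04, and 55.4% had the same sign in both genotypes. A test of the difference between genotypes called 26 genes (0.143%), 12 more positive (0.066%) and 14 more negative (0.077%) in the null, while the unadjusted p was below 0.05 for 1476 (8.11%). The count was 53 without wild-type GMP replicate 2, 43 without null GMP replicate 3, and 6 to 12 without wild-type GMP replicate 1 or 3, wild-type LMPP replicate 1, null LMPP replicate 2 or 3 or null GMP replicate 2.

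Nrp1 and Raph1 led the genes whose wild-type rise was not seen in null cells. Nrp1 had 9.53, 9.35 and 9.83 in null GMP and 10.58, 9.72 and 10.07 in null LMPP, beside the wild-type values above, so that all null LMPP arrays were above all 6 wild-type arrays. The difference between genotypes was -2.64 (adjusted p = 0.000251). Raph1, a regulator of actin at the cell edge, had 8.87, 9.26 and 8.59 in null GMP and 9.34, 9.34 and 9.69 in null LMPP, beside 8.89, 9.22 and 9.13 in wild-type GMP and 7.01, 7.70 and 7.56 in wild-type LMPP. The difference was -2.20 (adjusted p = 0.000251). Both kept their call with any 1 of the 12 arrays left out.

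Ldhb, a lactate dehydrogenase subunit, had 9.94, 10.21 and 10.04 in null GMP and 8.72, 9.20 and 9.15 in null LMPP, beside 9.27, 8.87 and 9.34 in wild-type GMP and 9.62, 10.22 and 9.97 in wild-type LMPP. It was higher in GMP in the null and lower in GMP in wild type, without overlap in either, and the difference was 1.82 (adjusted p = 0.00312). Meg3, an imprinted long RNA, had 8.89, 9.10 and 9.28 in null GMP and 11.41, 11.32 and 11.63 in null LMPP, beside 7.31, 7.90 and 7.47 in wild-type GMP and 7.47, 8.26 and 7.88 in wild-type LMPP. The difference was -2.05 (adjusted p = 0.00772). Ldhb and Meg3 also kept their call with any 1 array left out.

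Prg2, an eosinophil granule protein, had the largest difference between genotypes, 4.50 (adjusted p = 0.0235), with 8.27, 10.18 and 11.96 in null GMP and 6.52, 5.43 and 5.68 in null LMPP. All 6 wild-type arrays of the comparison lay between 5.07 and 6.12. Its null GMP arrays differed widely from each other, and the call held in 6 of 12 omissions, with an adjusted p of up to 0.0743.

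**Figure D5:**
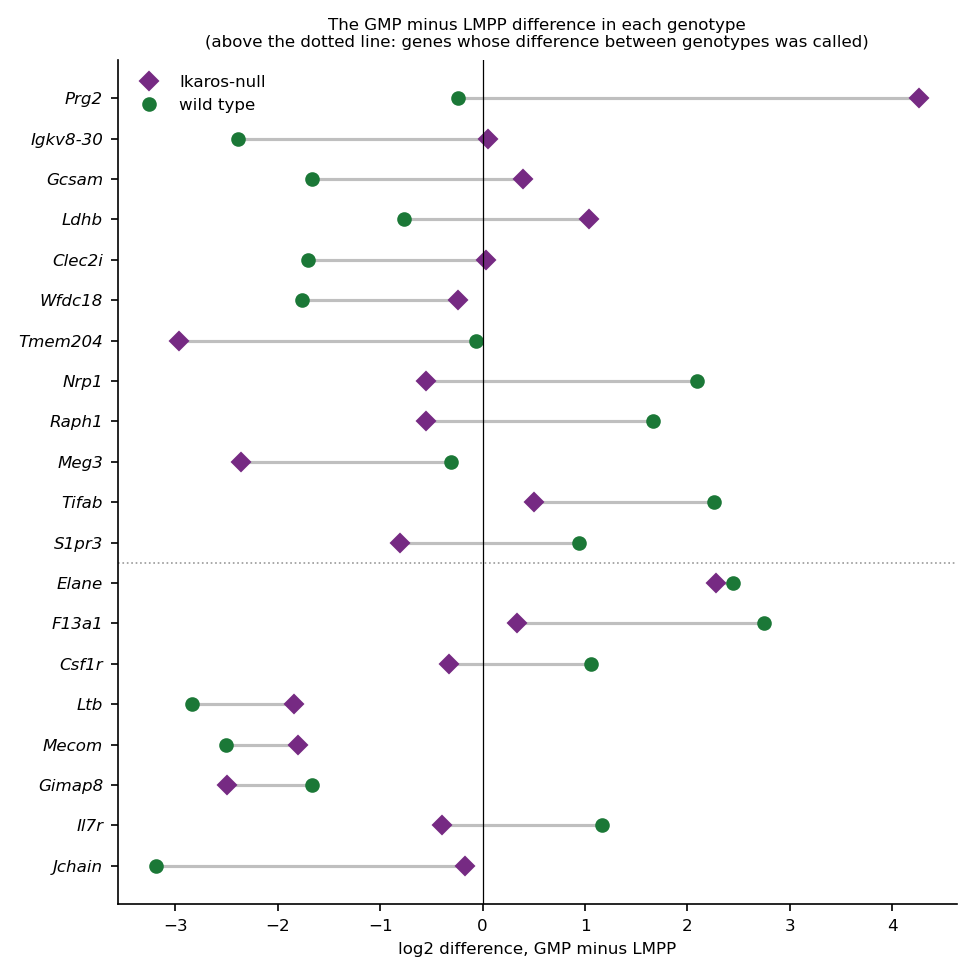
Log2 difference of GMP minus LMPP in Ikaros-null (purple diamonds) and wild-type (green circles) cells. Above the dotted line stand the 12 genes with the largest called differences between genotypes, and below it 8 genes of the wild-type comparison, for which no difference between genotypes was called. Elane lies at 2.28 in null and 2.45 in wild-type cells, while F13a1 lies at 0.34 and 2.75.

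Among the genes that marked wild-type GMP, as the plot of both genotypes shows, Elane differed by 2.28 in null and 2.45 in wild-type cells, Ltb by -1.84 and -2.84, and Mecom by -1.80 and -2.51. Gimap8 differed by -2.50 in null and -1.67 in wild-type cells. F13a1 differed by 0.34 in null and 2.75 in wild-type cells, Csf1r by -0.33 and 1.06, Il7r by -0.40 and 1.17, and Jchain by -0.17 and -3.19. None of these 8 differences between genotypes passed the test. By list, no member of the granule, monocyte, early lymphoid, stem cell, Gimap or interferon lists was called for a difference between genotypes. That test called only 0.143% of all genes, so lists of this size could hold no call at that share. The absence of calls therefore says nothing particular about these lists.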

How the data were processed

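RNA of sorted cells, extracted with Trizol, was hybridised as biotinylated cRNA to Affymetrix arrays, per the labels' protocols. The deposited values are log2 signals per probe set, made by the authors with RMA per the submitters' processing notes (no version of it is stated there). RMA forces similar distributions onto all arrays, so a shift of the whole transcriptome would not be seen. Values ran between 3.33 and 14.5. Of 45101 probe sets, 34945 had 1 gene symbol in the platform annotation, 932 several, 9160 none and 64 were controls. Each of the 18193 genes was represented by its brightest probe set, judged by the signal averaged across the 24 arrays.

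The 8 groups of 3 arrays were fitted together in limma 3.58.1 (lmFit and eBayes, R 4.3.3), with p-values adjusted over all genes by the Benjamini-Hochberg method. The fit was tested on simulated data. The number of arrays limits the precision, and an exact permutation test of 3 against 3 arrays cannot give a two-sided p below 0.1. Replicate numbers come from the titles. Same-numbered GMP and LMPP arrays deviated together, with correlations of 0.582 to 0.673, against -0.543 to 0.122 for other pairs. With MEP and HSC included these were 0.171 to 0.708 and -0.678 to 0.212. The replicate number was therefore also fitted as a block, as an alternative. The main fit did not pair the arrays, and calls given without naming the block come from that unpaired fit.

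The members and the 50 gene lists were chosen with earlier results of these data known. Named genes were the 15 largest called rises and falls whose arrays did not overlap, from every list the called genes with the lowest adjusted p (4 at most), a panel of 44 genes of which 39 were measured, and the 6 largest called values each way of both further tests. Other genes are named as members of a list, and were chosen after their values were seen. Promoters came from RefSeq on GRCm38.p6, with 14452 of the 18193 genes matched by symbol. Alternatives were the replicate block, the groups alone, other probe set rules, a filter on dim genes, other scalings, array weights and each array left out. Listed genes without a probe set of their own were not analysed here.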

Additional observations from a re-analysis of the deposited data

Results flagged for a closer look

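The difference between LK and LSK cells was not the same in GFP-bright and GFP-low wild-type cells, by a limma test of the difference itself, for 1627 genes. The largest positive values, where the GFP-bright LK cells stood higher relative to their LSK cells, were 5.38 for Alcam, 5.04 for Bex6, 5.03 for Gria3, 4.84 for Mgst1, 4.77 for Sting1 and 4.70 for H2-Aa (log2). The largest negative values were -4.01 for Tlcd4, -3.62 for Paqr9, -3.55 for Nxpe2, -3.38 for Acsl6, -3.31 for Rhd and -3.24 for Reps2. All 12 were called with any 1 of the 12 arrays left out.

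The difference between GMP and LMPP was not the same in Ikaros-null and wild-type cells, by a test of the difference itself, for 26 genes. The largest positive values were 4.50 for Prg2, 2.44 for Igkv8-30, 2.06 for Gcsam, 1.82 for Ldhb, 1.74 for Clec2i and 1.52 for Wfdc18. The largest negative values were -2.90 for Tmem204, -2.64 for Nrp1, -2.20 for Raph1, -2.05 for Meg3 and -1.76 for both Tifab and S1pr3. Ldhb, Clec2i, Nrp1, Raph1 and Meg3 were called in 12 of 12 omissions of 1 array, Gcsam and Wfdc18 in 8, Igkv8-30 and S1pr3 in 7, and Prg2, Tmem204 and Tifab in 6. In groups of 3 arrays no single array was tested for standing apart.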

How the results depend on the processing

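Of 827 genes called between GMP and LMPP, 279 differed at least 2-fold, and the count was 149 with the 6 arrays fitted alone, 3148 with the replicate block, 2226 with array weights and 305 to 1708 with 1 array left out. The share higher in GMP was 57.1% with the block, 58.2% with array weights, 29.5% with the 6 arrays alone and 53.8% with median centring. Without both arrays numbered 2, an alternative chosen after seeing the data, 928 genes were called, 682 of them shared. For the test against GFP-low cells the replicate block gave 3182 calls in place of 1627. For the test between genotypes, 26 calls became 8 with its groups alone, 9 without the dimmest 40% of genes, 43 with the mean of all probe sets, 91 with array weights and 6 to 53 with 1 array left out. Same-numbered arrays did not all deviate together there (lowest correlation 0.0238), and the replicate block gave 22 calls, 13 shared, without Prg2, Gcsam, Wfdc18, Tmem204 and Tifab (adjusted p of 0.147, 0.0891, 0.103, 0.122 and 0.119). Of the 126 named genes called, 63 kept their call with any 1 array left out, 41 with the 6 arrays alone, and 123 with the block, which lost Ddost, Lamp1 and Itga1. Uqcrq changed sign to -0.10 without probe sets ending in _x_at or _s_at, and Psmd13 to -0.26 with the probe set of largest variance; both are other probe sets of the gene, and neither value was called.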

Other observations

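Several gene groups not described above also held called members, where 2.02% of all genes were called higher in GMP and 2.53% lower. Of 14 measured chemokine receptors, 3 were called higher in GMP and 1 lower, and Cxcr4, which retains cells in the marrow, rose by 1.02 (limma adjusted p = 0.0213), with adjusted p of 0.152, 0.0698, 0.123 and 0.0532 without GMP replicate 1, GMP replicate 3, LMPP replicate 1 and LMPP replicate 3. Of 14 Bcl2 family genes, 2 were called higher and 1 lower. Bid and Pmaip1, which promote cell death, rose by 0.88 and 1.09 (adjusted p of 0.0188 and 0.0247), while Mcl1, which opposes it, fell by 0.49 (adjusted p = 0.0478). No Bcl2 family gene was called without GMP replicate 1, GMP replicate 3, LMPP replicate 1 or LMPP replicate 2. Of 5 Ikaros family genes, Ikzf2 was called lower in GMP, at -0.77 ± 0.20 (adjusted p = 0.0254), with adjusted p between 0.0654 and 0.172 without GMP replicate 1, GMP replicate 3, LMPP replicate 1 or LMPP replicate 3.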
